A study of Homo sapiens with 3 samples.

Results

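Ribosome peaks were described in 9 genes whose coding sequences are near or above 2000 codons: DYNC1H1, PRKDC, HUWE1, UBR4, AHNAK, FLNA, PLEC, SPTAN1 and MYH9. The genes were a fixed list of names, and a peak was given to a gene through the RefSeq transcript named in its annotation, or through the gene name column where that transcript was not in the RefSeq table. Of the 3800 genes with a peak in any list, 7 were among these 9, and they held 126 peaks. HEK293T, a transformed line from human embryonic kidney, was transfected for 24 h with the DEAD-box RNA helicase DDX3X carrying a FLAG tag, either as wild-type or as the point mutant G325E, or with empty pCDNA3.1 vector, and ribosome-protected fragments were sequenced (ribosome profiling). By the labels, harringtonine (2 µg/ml, 90 s), which holds initiating ribosomes, and then cycloheximide (100 µg/ml), which holds elongating ones, were added, whereas the methods of the study name cycloheximide alone; which applies to these libraries is not settled. Each construct had 1 library, so no difference below has a replicate check, and intervals are 95% limits of counting error only. They treat listed peaks as independent, although neighbouring peaks of a gene can be parts of the same covered stretch, so they are likely too narrow. The labels give the cell type as neuronal, but 3 of 12 neuronal markers (TUBB3, NEFL and NEFM) had a peak in each list, and of 9 markers of embryonic kidney and of proliferating cells 1, 5 and 2 had one in vector, wild-type and G325E, so peaks at these markers do not settle the label.

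Translation of a very long coding sequence takes a ribosome correspondingly longer, and the message can carry many ribosomes at once. Proteins of this size include cytoskeletal motors, filament cross-linkers, giant kinases and ubiquitin ligases. DDX3X unwinds structured RNA and is known for its part in the initiation of translation, and the study compared the mutant with the wild-type protein by where ribosomes lay on messages.

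The lists held 11219 peaks for vector, 19920 for wild-type DDX3X and 15680 for G325E. A listed peak is a stretch of the genome where read coverage passed a fixed limit. The lists carry no height or read count, and they were not scaled to the depth of the libraries. By the read table of the study, wild-type had the most non-duplicated mapped reads and G325E the fewest, so the longer G325E list did not go with a deeper library than vector, whereas the wild-type list was both the longest and from the deepest library. In a peak count, more cells with a message, more message per cell and more ribosomes per message cannot be told apart. The median length of a peak was 29, 29 and 30 bases in vector, wild-type and G325E. Exon-class peaks had a mean GC content of 58.7%, 58.1% and 67.6% in that order (31 bases around each midpoint). Peaks were numbered in genome order, and the numbering skipped 1952 peaks in the vector list and 3099 in the wild-type list but none in the G325E list. The skipped peaks were not analysed here. DDX3X itself had 0, 32 and 9 peaks in these lists.

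The sequences below are coding windows of at most 30 bases from peaks that show where listed coding peaks lay along a gene. They were read from GRCh37 on the strand of the gene, and exon numbers are those of the RefSeq transcript in the lists. Capitals mark the in-frame codon at the midpoint of the peak, except in DYNC1H1, where they mark the start codon. The first MYH9 peak, at codon 1823, had the same bounds in all 3 lists, and the second, at codon 1893, was the last coding peak of all 3. Codon 1222 was the first MYH9 codon at a peak midpoint in G325E, and codon 655 lay in the first MYH9 exon with a peak in wild-type. The remaining 4 windows come from the longest exon peak at the given exon of each gene.
MYH9 exon 38, chr22:36681168-36681195, minus strand: ctggaggagcagCTGgacaacgagacca
MYH9 exon 40, chr22:36680211-36680240, minus strand: ggccaacgcctccCGCcggaaactgcagcg
MYH9 exon 28, chr22:36690296-36690325, minus strand: aggcaaagcagactCTGgagaacgagcggg
MYH9 exon 16, chr22:36702519-36702548, minus strand: acaaggagcagctgGCCaagctgatggcta
DYNC1H1 exon 1, chr14:102431028-102431057, plus strand: cATGtcggagcccgggggcggcggcggcga
FLNA exon 2, chrX:153599496-153599525, minus strand: ccaccgagaaggacCTGgcggaggacgcgc
SPTAN1 exon 38, chr9:131374450-131374479, plus strand: ccagaaactgaaaGAAgccaacaagcagca
HUWE1 exon 50, chrX:53592050-53592079, minus strand: caggatgcccaaggaGCCtctcaagattcc
The GC content of these windows ran from 46.7% in SPTAN1 to 83.3% in DYNC1H1. The DYNC1H1 window held the start codon and came from the G325E list, whereas the SPTAN1, HUWE1 and FLNA windows came from the wild-type list.

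The 9 genes held 8, 82 and 36 peaks in the vector, wild-type and G325E lists. Per 10000 listed peaks these were 7.13, 41.2 and 23.0. Wild-type was 5.77-fold above vector (interval 2.80 to 13.8), G325E stood at 0.558 of wild-type (0.366 to 0.835), and G325E was 3.22-fold above vector (1.47 to 8.02). MYH9 alone gave all 8 vector peaks, 46 of the wild-type peaks and 16 of the G325E peaks. Without MYH9 the counts were 0, 36 and 20, and the ratio of G325E to wild-type was 0.706 with an interval (0.387 to 1.25) that includes 1. A gene with no peak in a list could still have had up to 2.67 (vector), 1.51 (wild-type) or 1.91 (G325E) peaks per 10000, the level of 3 peaks. Fold values below that set a 0 at this level take the other count as exact, so they are not interval limits.

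**Figure D1:**
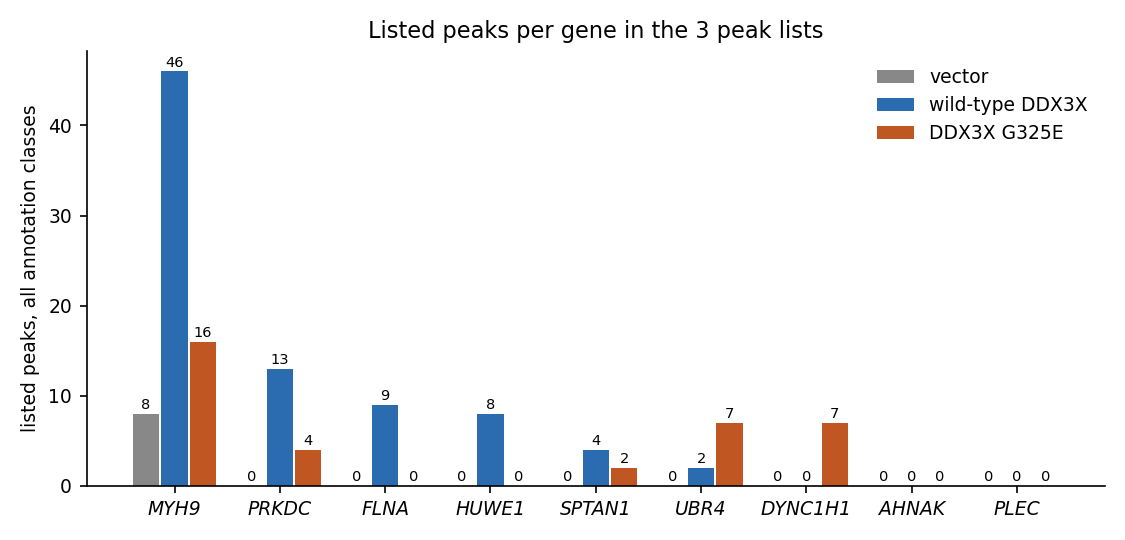
Bars give the number of listed peaks of all annotation classes (y axis) for each of the 9 genes (x axis) in the vector, wild-type DDX3X and DDX3X G325E lists, with 1 library each and the count printed above each bar. MYH9 has 8, 46 and 16 peaks, DYNC1H1 has peaks in the G325E list only, and AHNAK and PLEC have none.

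The coding sequences ran from 1960 codons in MYH9 to 5890 in AHNAK, and peak counts did not follow this order. AHNAK, a giant scaffold protein at the cell membrane, and PLEC, the cytolinker plectin, had 0 peaks in all 3 lists. No peak number was skipped between the listed peaks that flank either gene, which for the G325E list says nothing, since that list skips no number anywhere. The GC content of the coding sequence was 49.3% for AHNAK and 66.9% for PLEC, the latter the highest of the 9. AHNAK has 98.1% of its coding sequence in 1 exon.

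MYH9 encodes the heavy chain of non-muscle myosin IIA, with a motor head at its amino end and a long coiled-coil tail at its carboxyl end. The gene lies at chr22:36677326-36784012 on the minus strand and has 41 exons, of which the first is not coding. In vector, 7 of its 8 peaks were in exons 38 to 40 and 1 was in intron 38. In G325E, all 16 peaks were in exons 28 to 40. In wild-type, 38 of 46 peaks were in exons 16 to 40, and the other 8 were in introns, 6 of these within 100 bases of an exon. The first coding peak therefore lay at codon 1775 in vector, codon 1222 in G325E and codon 619 in wild-type, whereas the last lay at codon 1893 in each.

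Exons 38 to 40, at the 3′ end of the gene, held 7, 7 and 6 peaks (vector, wild-type, G325E), a like count in each list. Exons 28 to 37 held 0, 20 and 10 in that order, and exons 16 to 27 held 0, 11 and 0. No list had a listed peak in the 14 coding exons before exon 16. In wild-type the numbering skipped 4 peaks beside those of MYH9, of which 1 lay 5′ of its first listed peak and 3 lay 3′ of its last, inside the gene or beyond it. Wild-type had peaks in exons 16, 17, 22, 25 and 27 and then in every exon from 28 to 40. G325E had peaks in exons 28, 29, 30 and 36 to 40 and none in exons 31 to 35, where wild-type had 11. A peak of 172 bases with the same bounds in all 3 lists covered 99.4% of exon 40. Of the MYH9 coding sequence, vector peaks covered 7.67%, wild-type peaks 43.1% and G325E peaks 16.6%.

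**Figure D2:**
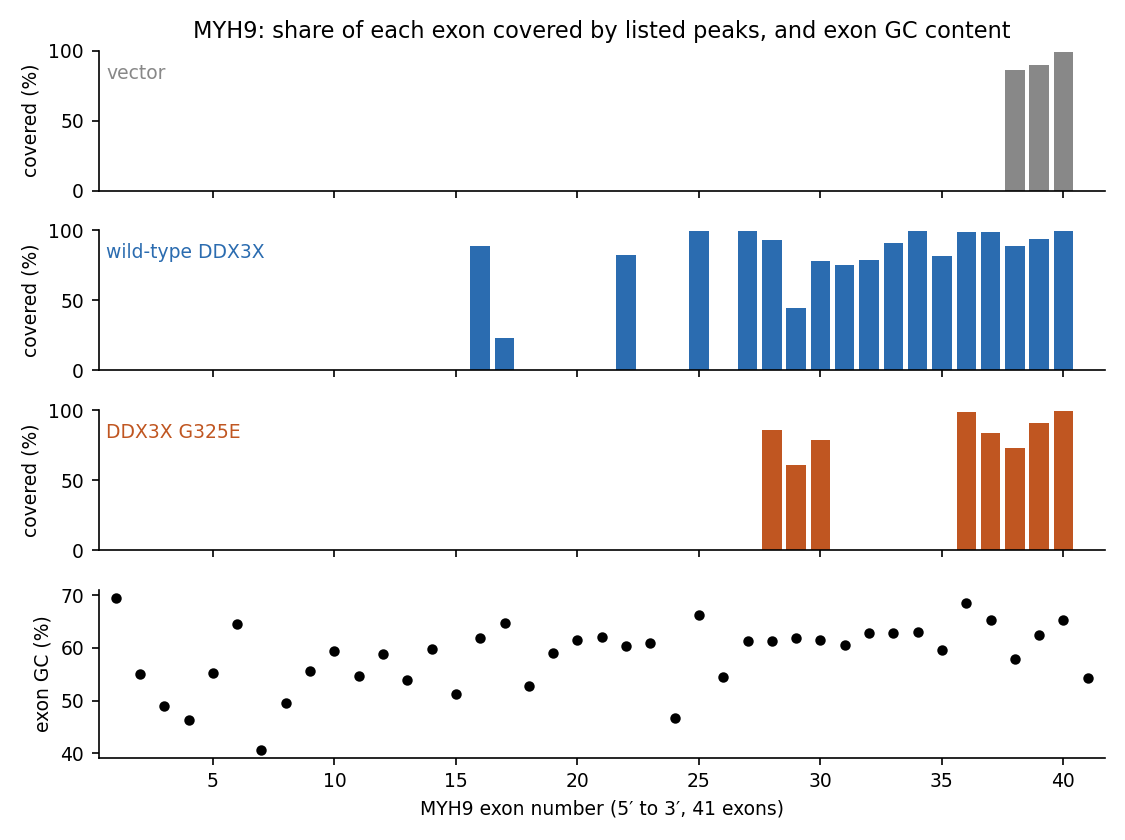
The upper 3 panels give the percent of each MYH9 exon (x axis, exon number 1 to 41 from the 5′ end) covered by listed peaks in vector, wild-type DDX3X and DDX3X G325E, and the lowest panel gives the GC content of the exon in percent on an axis that does not start at 0. Covered exons begin at exon 38 in vector, 28 in G325E and 16 in wild-type.

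All 16 G325E peaks of MYH9 shared 1 base or more with a wild-type peak, and 6 of them had the same start and end. Of the 8 vector peaks, 7 overlapped a wild-type peak and 6 a G325E peak. Conversely, 14 of the 46 wild-type peaks (30.4%) overlapped a G325E peak and 7 (15.2%) a vector peak. Over all listed peaks, 47.3% of G325E peaks overlapped a wild-type peak, and 34.9% of wild-type peaks overlapped a G325E peak. Of all vector peaks, 76.8% overlapped the wild-type list and 48.1% the G325E list, and 41.6% of all wild-type peaks overlapped the vector list.

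The count of MYH9 peaks moved as follows. Wild-type was 3.24-fold above vector per 10000 peaks (1.51 to 7.95), G325E was at 0.442 of wild-type (0.234 to 0.795), and the ratio of G325E to vector was 1.43 (0.578 to 3.86). The density of coding peaks per 1000 codons was 3.57 for vector, 19.4 for wild-type and 8.16 for G325E. The medians of all genes with a coding peak were 9.80, 9.65 and 7.88 in these lists. MYH9 was thus below the median gene in vector and above it in wild-type, where 75.8% of genes had a lower density. In G325E it was just above the median gene, with 51.5% of genes lower. The 18 exons with a wild-type peak had a median GC content of 62.1%, against 54.9% in the 22 coding exons without one. Among exons from 16 onwards the 8 without a wild-type peak had a median of 56.7%. Exons 16 to 27, 28 to 37 and 38 to 40 had medians of 61.1%, 62.4% and 62.4%. The part of exon GC content in the difference between the lists was not tested.

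DYNC1H1, the heavy chain of cytoplasmic dynein 1, which carries cargo along microtubules, lies at chr14:102430910-102522780 on the plus strand and has 78 exons and 4646 codons. It had 7 peaks in G325E and 0 in both other lists. Of the G325E peaks, 2 were in exon 1, with midpoints at codons 5 and 46, 4 were in intron 1 and 1 was of the promoter class. The first exon peak lay over the start codon. No DYNC1H1 peak lay past intron 1 in any list. With each 0 set at 3 peaks, its G325E count per 10000 was 2.96-fold higher than wild-type and 1.67-fold higher than vector. The mean GC content around its 7 peaks was 84.3% ± 5.72 (SD over peaks). DYNC1H1 peaks on the opposite strand numbered 2.

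FLNA, the actin cross-linker filamin A, showed peaks at its 5′ end in another list. The gene lies at chrX:153576899-153603002 on the minus strand and has 48 exons, the start codon being in exon 2. It had 9 peaks in wild-type and 0 in both other lists. Of the wild-type peaks, 5 were coding peaks in exon 2 with midpoints between codons 11 and 123, 1 was in the 5′ UTR part of exon 2, and 3 were in introns 1 and 2, of which 1 was on the opposite strand. No FLNA peak lay past intron 2. With each 0 set at 3 peaks, wild-type was 1.69-fold higher than vector, and G325E was 2.36-fold lower than wild-type. In the FLNA span the numbering skipped 1 peak in vector and 2 in wild-type, so the 0 in vector covers listed peaks alone. It also skipped 1 number each in the wild-type spans of PRKDC, HUWE1 and UBR4.

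SPTAN1, the alpha-II chain of spectrin in the membrane skeleton, lies at chr9:131314866-131395941 on the plus strand. Its peaks numbered 0 (vector), 4 (wild-type) and 2 (G325E). The wild-type peaks lay in exons 37 and 38 of 56, with midpoints from codon 1596 to codon 1661 of 2477, and the G325E peaks were of the transcription termination class, 508 and 520 bases past the end of the canonical gene. The lists thus had no SPTAN1 position in common, and G325E had no peak within the coding sequence. The ratio of G325E to wild-type was 0.635, and its interval (0.0575 to 4.43) is wide at these counts.

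PRKDC, the catalytic subunit of the DNA-dependent protein kinase in DNA end joining, lies at chr8:48685672-48872696 on the minus strand. Its counts were 0 (vector), 13 (wild-type) and 4 (G325E). In wild-type, 7 were coding peaks, with 2 in exon 32, 1 in exon 37, 2 in exon 47 and 2 in exon 48 of 86, which placed midpoints between codons 1325 and 2154 of 4127. The other 6 wild-type peaks and all 4 G325E peaks were of the promoter class, upstream of PRKDC. Of these upstream peaks, 4 in wild-type and 4 in G325E were on the plus strand, the strand of the neighbouring gene MCM4, a subunit of the replicative helicase. The midpoints of 2 such wild-type peaks and 3 such G325E peaks fell within the canonical MCM4 transcript. Peaks within PRKDC itself were therefore found in the wild-type list alone, and the G325E to wild-type ratio of 0.391 (0.0929 to 1.27) counts upstream peaks on the strand of MCM4. With the vector 0 set at 3 peaks, wild-type was 2.44-fold higher than vector when all classes were counted. The GC content of the PRKDC coding sequence, 45.9%, was the lowest of the 9.

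HUWE1 and UBR4 are large ubiquitin ligases. HUWE1 lies at chrX:53559057-53713664 on the minus strand and had 8 peaks in wild-type and 0 in both other lists. Of the wild-type peaks, 4 were in the 5′ UTR (exons 1 and 2), 1 was in intron 2, 1 was of the promoter class, and 2 were coding peaks in exons 50 and 51 of 84, at codons 2282 and 2300 of 4374. With each 0 set at 3 peaks, wild-type was 1.50-fold higher than vector, and G325E was 2.10-fold lower than wild-type. HUWE1 peaks thus lay either before the start codon or near the middle of the coding sequence, with none in between.

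UBR4, which recognises destabilising amino-terminal residues, lies at chr1:19401004-19536760 on the minus strand and has 5183 codons. Its counts were 0 (vector), 2 (wild-type) and 7 (G325E). The wild-type peaks were 1 of 3 bases at codon 58 in exon 1 and 1 of the promoter class. In G325E, 6 were of the promoter class and 1 was in intron 1. A promoter-class peak of 102 bases lay over the start codon, with its midpoint at codon 13. In G325E 3 of the 7 peaks were on the opposite strand. The ratio of G325E to wild-type was 4.45 with an interval (0.847 to 43.9) that includes 1. With the vector 0 set at 3 peaks, G325E was 1.67-fold higher than vector. As in DYNC1H1, no UBR4 peak in any list lay past intron 1.

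**Figure D3:**
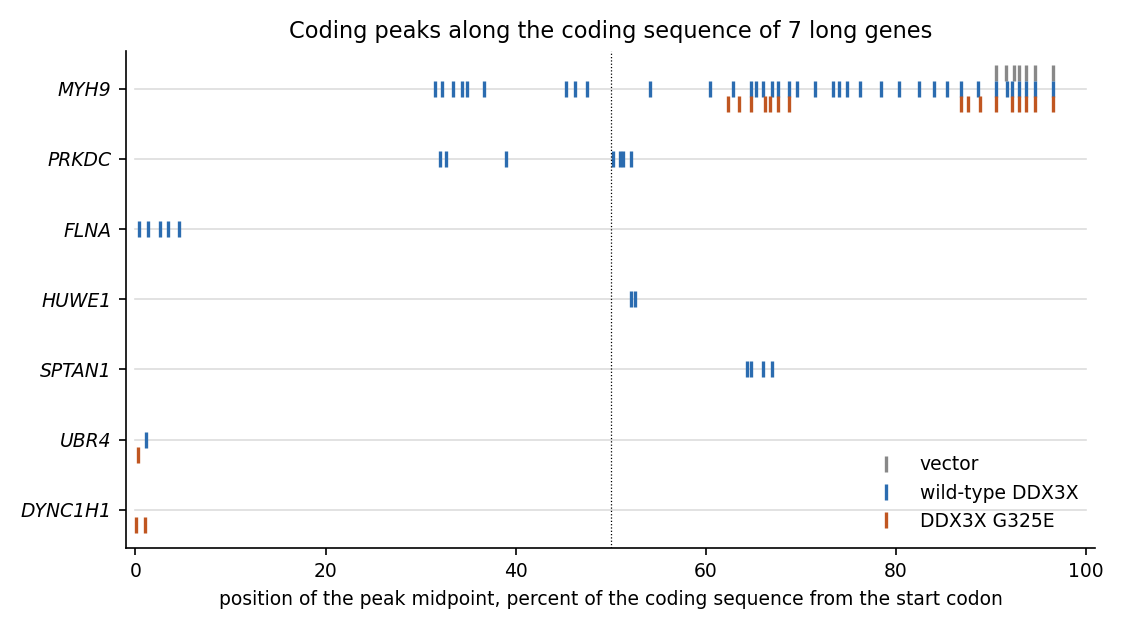
Each tick is the midpoint of a coding peak on the strand of the gene, placed in percent of the coding sequence from the start codon (x axis), for the 7 genes with peaks (y axis), with vector above, wild-type DDX3X on and DDX3X G325E below each line. The G325E ticks outside MYH9 lie in DYNC1H1 and UBR4 at the start of the coding sequence.

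Over the 9 genes, 7, 57 and 19 peaks (vector, wild-type, G325E) were placed in coding sequence. Of these, 0 (upper limit 35.4%), 18 (31.6%, interval 21.0 to 44.5%) and 3 (15.8%, 5.52 to 37.6%) lay in the first 50% of the coding sequence. The order of wild-type and G325E turned when MYH9 was left out: 9 of 19 wild-type coding peaks (47.4%) and all 3 of the G325E coding peaks then lay in the first 50%. Over all genes the shares were 50.1%, 48.2% and 62.9% in the same order of lists. By exon number, 0 of 7 vector peaks, 20 of 62 wild-type peaks (32.3%) and 2 of 18 G325E peaks (11.1%) were in the first 50% of the exons. Peaks over a start codon were found in DYNC1H1 and UBR4 in the G325E list and in none of the 9 genes in the others. The share of all genes with such a peak is not given here, so these counts are a description and not a trait of the 9 genes. The mean GC content around the peaks of the 9 genes was 62.5%, 64.8% and 70.7% in that order, and without MYH9 wild-type peaks had 64.5% and G325E peaks 76.1%. The part of GC content in these positions was not tested.

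For a comparison with all genes, a gene was called when its count per 10000 differed at least 2-fold, among genes with at least 5 peaks in either list. Between wild-type and vector, 4 of the 9 genes had enough peaks (FLNA, HUWE1, MYH9 and PRKDC), and 4 were higher and 0 lower, beside 31.9% higher and 16.5% lower of 1834 genes. FLNA, HUWE1 and PRKDC had 0 peaks in vector, passed the limit through the wild-type list alone and so had to differ. With lists scaled by the median gene ratio, the members' calls were the same and the shares of all genes were 40.1% higher and 4.85% lower. Between G325E and wild-type, 6 genes had enough peaks. DYNC1H1 and UBR4 were higher and FLNA, HUWE1, MYH9 and PRKDC lower, 2 and 4 of 6 beside 28.1% and 31% of 2273 genes. DYNC1H1 had 0 peaks in wild-type, FLNA and HUWE1 had 0 in G325E, and UBR4 and PRKDC also reached 5 peaks in 1 list only. MYH9 alone had at least 5 in both lists, and the other 5 genes passed through the list where they were high. Counted by exon-class peaks only, MYH9 was not called between G325E and wild-type. Between G325E and vector, 2 of 3 genes (DYNC1H1 and UBR4) were higher and 0 lower, beside 38.6% and 23.3% of 1834 genes. Both had 0 peaks in vector and had to differ once they passed, and MYH9, the third gene, was not called. These comparisons share lists, and with so few members each count is a description.

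With counts under 3 raised to 3, the median ratio of the members with enough peaks was 2.07 for wild-type to vector, 0.459 for G325E to wild-type and 1.67 for G325E to vector. The medians of all genes tested were 0.939, 1.06 and 1.07. Members with 0 peaks in a list entered at 3, after passing through the list where they were high. The 1.67 is the value of DYNC1H1 and UBR4, which both had 0 peaks in vector. The members' medians are thus partly set by the limit on peaks and cannot be read as a shift of the members. The choice of scale matters to these ratios, because the lists differ in length by other factors than the typical gene does. The median gene with at least 5 peaks in both lists had 1.17 times as many listed peaks in wild-type as in vector, against 1.78 for the list totals, and the same number in G325E as in wild-type, against 0.787.

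A list of 60 other genes of 2000 codons or more gave a wider view of long coding sequences. Of these, 46 had no peak in any list. They held 63, 185 and 64 peaks (vector, wild-type, G325E). FASN, the fatty acid synthase, had 0, 45 and 31 peaks in that order. Its wild-type exon peaks ran from exon 12 to 43 and its G325E exon peaks from exon 9 to 23. SRRM2, a splicing scaffold, had 9, 58 and 5 peaks. The laminin chain LAMA5 had 9, 15 and 6, the receptor NOTCH2 had 12, 13 and 3, and the deubiquitinase USP9X had 8, 8 and 9. Of the 11 with enough peaks for wild-type and vector, wild-type was higher in 5 and lower in 2. For G325E and wild-type, G325E was higher in 0 and lower in 6 of 10, and for G325E and vector it was higher in 1 of 9 (FASN) and lower in 6. In the first 50% of the coding sequence lay 10.3% of 39 vector coding peaks, 22.0% of 141 wild-type ones and 60.0% of 40 G325E ones, and all 24 such peaks in G325E were in FASN.

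Among all 466 genes of 2000 codons or more, 16 had a coding peak in the vector list (3.43%), 45 in wild-type (9.66%) and 22 in G325E (4.72%). Among the genes of under 500 codons the shares were 8.78%, 12.2% and 8.41%. The intervals of the long and short genes did not overlap in vector or in G325E, and they did in wild-type. Of the coding peaks of the longest class, 29.6% (20.8 to 40.3%), 33.6% (29.0 to 38.5%) and 51.3% (42.3 to 60.2%) in the same order lay in the first 50% of the coding sequence. Of those of the shortest class, 51.2%, 51.0% and 61.5% did. In the longest class, FASN held 29 of the 115 G325E coding peaks and 24 of the 59 in the first 50%. Its wild-type counts were 39 of 372 and 7 of 125. The G325E share of the longest class thus rests in part on FASN, and a share without FASN was not computed. The members are among the longest class except MYH9, which at 1960 codons falls just below it.

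**Figure D4:**
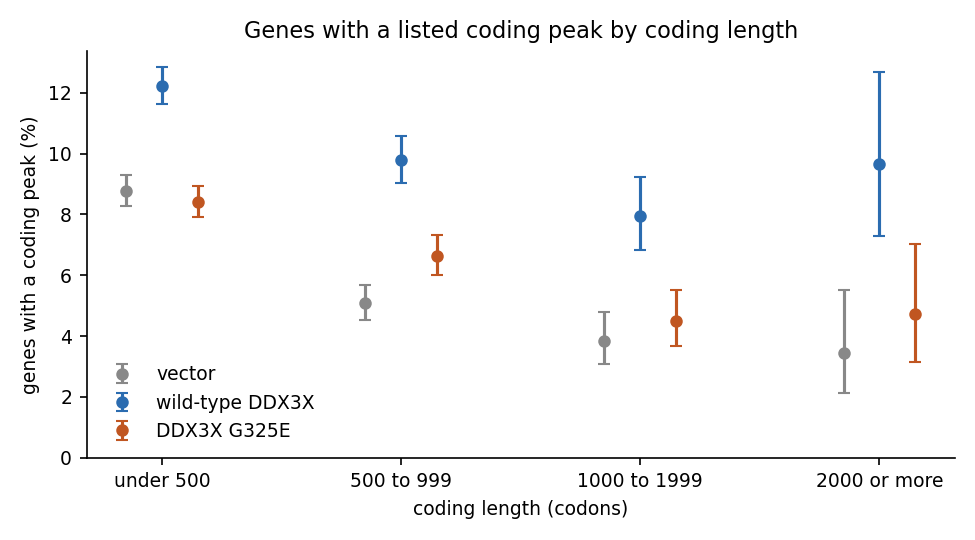
Points give the percent of genes with at least 1 listed coding peak (y axis) by coding length in codons (x axis) in the vector, wild-type DDX3X and DDX3X G325E lists, and bars give 95% Wilson intervals. At 2000 codons or more the points are at 3.43%, 9.66% and 4.72%, and wild-type is the highest of the 3 lists in every length class.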

How the data were processed

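Each of the 3 libraries (1 per construct) has 1 deposited list of peak positions in base pairs, with HOMER annotation and no heights or counts. Per the submitters' processing notes the authors trimmed reads with cutadapt and aligned them with BWA 0.5.5 to hg19. Per the study's methods, duplicates were removed and peaks were called from base coverage above a fixed limit, without scaling to depth, which favours deeper libraries and abundant messages. RefSeq ids were matched to symbols with the RefSeq gene table of GRCh38, used for names only, and 97.9 to 98.4% of peaks with an id matched. The columns of distance to the nearest start site, deposited with the positions, were not used. Midpoints were placed on GENCODE canonical transcripts lifted to GRCh37, and exon numbers are those of the lists, whose RefSeq transcripts have 1 exon fewer than the canonical transcript in PRKDC, HUWE1 and SPTAN1. Length was end minus start plus 1, and a peak of no length counted as 1 base (163, 272 and 236 peaks). Shares have Wilson intervals, ratios exact conditional intervals. With 1 library a group there was no test. Named genes were the 9 members, the 5 other long genes with the most peaks, and the 5 genes, with at least 20 peaks, whose split over the lists was nearest that of the members. The 2-fold calls were tested on simulated counts, and placement was checked base by base on the annotated coding sequences of the 9 members. The members and lists were chosen with earlier results of these data known. Python 3.11.15, pandas 2.3.3, SciPy 1.17.1 and pysam 0.24.0 were used.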

Additional observations from a re-analysis of the deposited data

Results flagged for a closer look

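The vector list held no peak of the 9 genes on the opposite strand, none of the promoter class and 1 of the intron class, and the other lists held more of each. On the strand opposite to the gene lay 5 wild-type peaks and 9 G325E peaks, of which 4 in each list were upstream of PRKDC on the strand of MCM4. These 5 and 9 peaks were all of the promoter or intron class. Over all genes, 5.22%, 6.23% and 10.0% of peaks with a midpoint in a canonical exon were on the opposite strand in vector, wild-type and G325E. Those shares leave out promoter and intron peaks, so they are no like background for the members. Of peaks of all classes, 8467 of 11219, 15274 of 19920 and 11045 of 15680 were kept as lying on the strand of their gene. The rest include peaks without a canonical coding transcript, for which no strand was set, so they are not all on the opposite strand. Intron-class peaks of the 9 genes numbered 12 in wild-type, 8 of them in MYH9, and 5 in G325E, 4 of them in intron 1 of DYNC1H1. Promoter-class peaks numbered 8 in wild-type, 6 of them near PRKDC, and 11 in G325E, of which 6 were near UBR4. Without a second library these counts have no replicate check.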

How the results depend on the processing

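The ratio of wild-type to vector for the 9 genes together kept its direction under each alternative with a vector peak (log2 2.20 to 3.14), as did G325E to wild-type (log2 -1.39 to -0.31) and G325E to vector (log2 0.88 to 2.16). The -0.31 came from counts per 10000 exon-class peaks, beside -0.84 in the main setting, and has no interval. The size of the G325E to wild-type ratio thus depended on the scale. Counts of peaks, given for vector, wild-type and G325E, were 0, 26 and 15 with the gene name column only, which places MYH9 under APOL1 and SPTAN1 under WDR34, 0, 34 and 18 with RefSeq ids mapped through the lists alone, 0, 36 and 20 without MYH9, and 4, 46 and 20 with peaks within 50 bp merged. G325E had 18 with exon-class peaks only and 22 with midpoints inside the canonical gene on its strand, and wild-type had 49 when equal numbers of the longest peaks were taken. The wild-type share of coding peaks in the first 50% was 69.2% with the gene name column only, 60.0% with ids mapped through the lists and 47.4% without MYH9, and its share by exon number was 77.8%, 70.0% and 58.3%. The G325E shares were 100% in each of these 3 settings, on 3 coding and 2 exon-numbered peaks, so the order of wild-type and G325E rests on MYH9. With 5′ ends of peaks placed instead of midpoints, 18 of 56 wild-type coding peaks (32.1%) and 1 of 17 G325E ones (5.88%) lay in the first 50%. The G325E coding peaks in the first 50% thus also depend on the point of the peak that is placed. Of the 2-fold calls, exon-class peaks only left 0 higher and 2 lower for G325E against wild-type, beside 13.7% and 48.3% of 943 genes. The 2 were FLNA and PRKDC, which had 0 such peaks in G325E and so had to differ. MYH9, with 38 such peaks in wild-type and 16 in G325E, was no longer called. Against vector, G325E was higher in 0 members, beside 24.2% of 648 genes. Counts under 3 raised to 3 left 2 members higher for wild-type against vector, beside 7.42% of 1834 genes. For G325E against vector they left 0 higher, beside 16.4% of 1834 genes. Without MYH9, 25.0% of G325E peaks overlapped a wild-type peak, beside 47.3% of all G325E peaks. Of the wild-type peaks 13.9% overlapped a G325E peak, beside 34.9% of all wild-type peaks. The overlap of either with vector was 0%, but vector had 0 peaks of these genes, so that value says nothing about position. The alternatives without MYH9, with ids mapped through the lists, inside the canonical gene and with low counts raised were chosen after seeing the data. Of all alternative values, 121 moved by less than the spread or limit set and 36 by more. Where a count fell because fewer peaks or genes entered, that is by construction, and otherwise the cause was not tested. No paired analysis was possible because each construct had 1 library, and leaving out a replicate could not be done for the same reason. The lists were not scaled to library depth, and every 0 covers listed peaks alone.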

Other observations

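The genes whose peaks split over the lists most like those of the 9 members summed (6.35% in vector, 65.1% in wild-type, 28.6% in G325E) were, among 706 genes with at least 20 peaks, PUF60, EIF3B, NCL, MYBBP1A and GOLIM4. PUF60, a splicing factor, had 4, 37 and 16 peaks in vector, wild-type and G325E, at a Euclidean distance of 0.852 percentage points from the members. EIF3B, a subunit of the initiation factor eIF3, had 2, 16 and 7. NCL, the nucleolar protein nucleolin, had 2, 13 and 6. MYBBP1A, also nucleolar, had 3, 19 and 7, and GOLIM4, a Golgi membrane protein, had 3, 19 and 10. The split rests on 3 lists and is dominated by MYH9, which gave 70 of the 126 member peaks.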
